A study of Mus musculus with 20 samples.

Results

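The 46 genes described here are enzymes and regulatory proteins of methionine, folate, sulfur and polyamine metabolism in the liver. They were chosen by symbol from pathway membership, with earlier results of these data known. The study itself had reported *Bhmt*, *Gnmt*, *Cth*, *Dmgdh* and *Ahcy* as lower in Titan mice. Counts of the 46 genes are therefore set beside the shares of all genes as a description only. The symbols were matched to the Ensembl gene IDs of the deposited counts with a GRCm38 annotation. All 46 were found among the 55573 gene IDs, and all 46 passed the filter on low counts that left 13784 genes for testing. By branch, they comprise 12 genes of the methionine cycle and its methyltransferases, 7 of choline and betaine oxidation, 7 of the folate cycle, 8 of transsulfuration and sulfur oxidation, 5 of methionine salvage and 7 of polyamine metabolism.

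RNA was sequenced from whole liver of 20 male mice in 4 groups of 5: unselected control mice of the outbred FZTDU line at 11 weeks, control mice at 19–21 weeks, Titan mice at 11 weeks and Titan mice at 19–21 weeks. Titan mice (also DU6) descend from the same outbred founder population and were selected for body mass for 45 years. All mice were fed a standard breeding diet without restriction, and the labels name no transgene or agent. Each line was bred as 1 colony, so that selection cannot be told apart from drift in that colony, and in whole liver fewer cells of a type cannot be told apart from less RNA per cell. Levels are given as CPM, a gene's read count scaled to the TMM-adjusted size of its library, and lists of values run from mouse 1 to mouse 5 of a group. Fold changes are log2 values from 1 edgeR quasi-likelihood fit of all 20 mice, and every adjusted p is that of its F test with Benjamini–Hochberg adjustment over the 13784 genes. A gene is called upregulated or downregulated at an adjusted p under 0.05.

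Methionine is turned into S-adenosylmethionine (SAM), the methyl donor of most methylation reactions. What remains after methyl transfer is S-adenosylhomocysteine, which is split into homocysteine and adenosine. Homocysteine is remethylated with betaine or with a folate-bound methyl group, or it leaves the cycle through transsulfuration to cysteine, whose sulfur is oxidised to taurine and sulfate. SAM is also decarboxylated for the synthesis of spermidine and spermine, and the sulfur-containing by-product is recycled to methionine by the salvage pathway. Liver is the main organ for the betaine-dependent step and for transsulfuration.

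The counts held 6794935 to 23295028 reads on genes per mouse, with 11-week mice at 10465526 to 23295028 and 19–21-week Titan mice at 6794935 to 11464698. Each library correlated with the mean of its 4 group mates at r = 0.98 to 0.9922 over log2 CPM of the tested genes, and none stood apart by this measure. The share of reads outside genes ranged from 13.05% to 30.96% and overlapped between all groups. Control mouse 4 stood apart in it at both ages. It was at 28.17% at 11 weeks (mates 14.76% to 17.63%) and at 30.53% at 19–21 weeks (mates 15.45% to 17.66%). High shares were also seen in Titan mouse 1 of 11 weeks (26.39%) and Titan mice 3 and 4 of 19–21 weeks (30.96% and 27.37%). Of the 6 hepatocyte markers examined, all were detected, with a summed level of 67200 to 101600 CPM over the 20 mice.

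At 11 weeks, 5 of the 46 genes were upregulated and 13 were downregulated in Titan mice. Among all 13784 genes, 7.23% were upregulated and 7.7% were downregulated in this comparison. The downregulated genes were led by *Bhmt* (betaine to homocysteine methyl transfer), *Cth* (the second enzyme of transsulfuration), *Ethe1* (mitochondrial sulfide oxidation) and *Aldh1l1* (cytosolic formyl folate oxidation). The upregulated genes were led by *Mthfd1l*, which makes formate in mitochondria, and *Sms*, which makes spermine. The median log2 fold change was -0.21 over the 46 genes and -0.02 over all genes tested, and 33 of the 46 had a negative value.

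At 19–21 weeks, 4 of the 46 genes were upregulated and 8 were downregulated in Titan mice, against 4.24% and 4.88% of all genes. The median log2 fold change was again -0.21 over the 46 genes, and 0.01 over all genes. Of the genes called, 6 were downregulated at both ages (*Dmgdh*, *Mthfd1*, *Aldh1l1*, *Cth*, *Ethe1* and *Mtap*) and 3 were upregulated at both ages (*Mthfd1l*, *Sms* and *Smox*). Another 9 were called at 11 weeks alone and 3 at 19–21 weeks alone, and 25 were called at neither age. The values of Titan and control mice did not overlap for 14 of the 46 genes at 11 weeks (3 higher, 11 lower) and for 11 at 19–21 weeks (1 higher, 10 lower), where 11.9% and 7.62% of all genes had no overlap. These ages differ in mice but share 1 fit, and the test of the difference between them is given with the age comparisons.

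**Figure D1:**
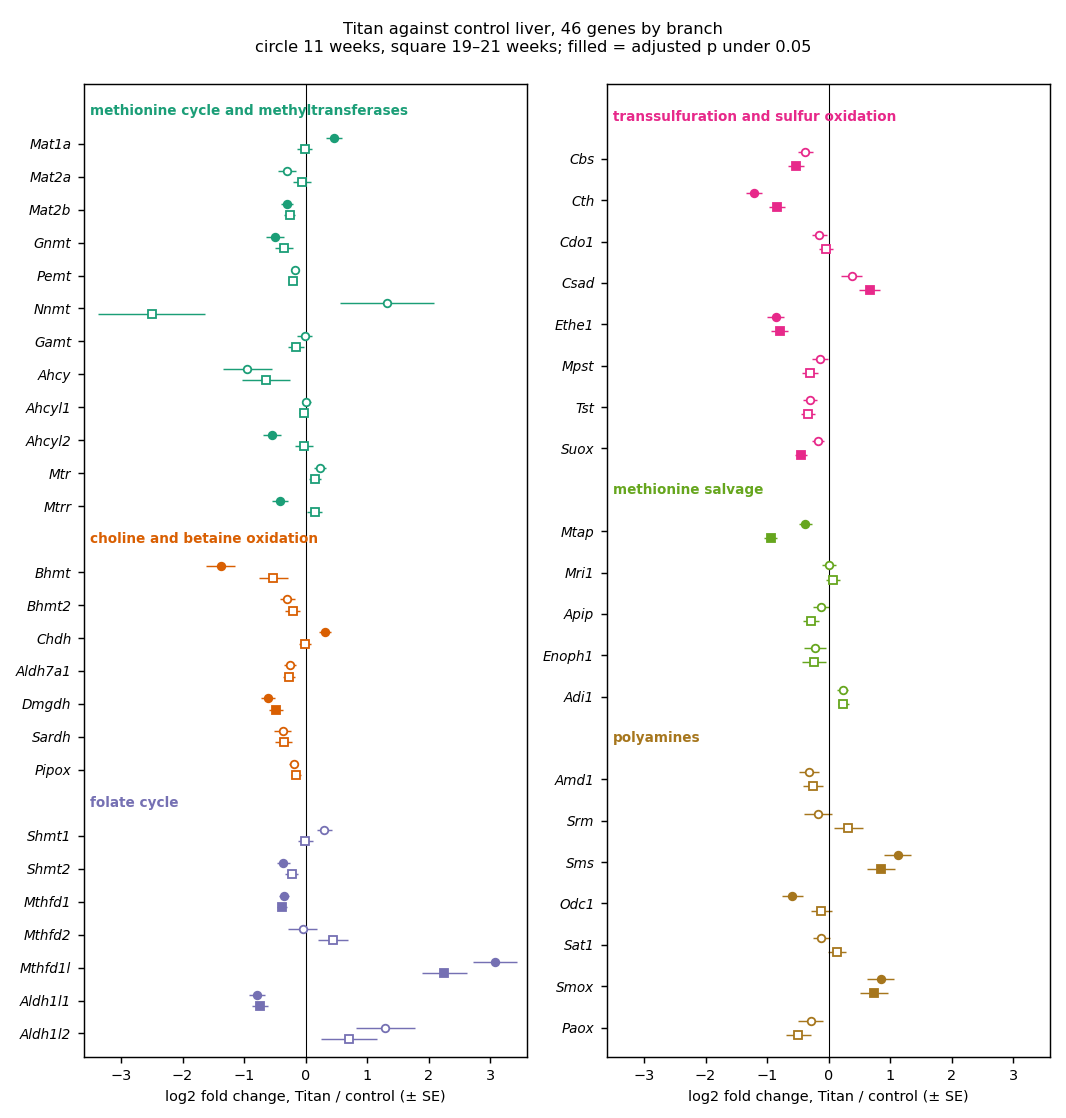
Log2 fold change of Titan over control mice (x axis) with its SE for each of the 46 genes (y axis), grouped by branch; circles are 11 weeks, squares 19–21 weeks, and filled symbols have an adjusted p under 0.05. *Mthfd1l* stands farthest to the right at both ages, *Cth*, *Ethe1*, *Aldh1l1* and *Mtap* lie left of 0 at both, and *Nnmt* has the widest errors.

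The levels of the 46 genes spanned more than 4 orders of magnitude per kb of exon (CPM divided by the summed length of a gene's exons). In 11-week control mice, mean levels per kb ran from 845 ± 162 for *Gnmt*, the glycine methyltransferase that uses surplus SAM, to 0.0362 for *Aldh1l2*, the mitochondrial relative of *Aldh1l1*. *Gnmt* was followed by *Cdo1*, the cysteine dioxygenase (668.5 ± 74.9), by *Mat1a*, the liver enzyme of SAM synthesis (496 ± 57.7), and by *Aldh1l1* (291 ± 50.1). In 11-week Titan mice the order at the top was *Mat1a* (682 ± 104 per kb), *Cdo1* (602 ± 73.5) and *Gnmt* (599 ± 68.6), and the last pair lay within each other's SD. The upregulated genes *Mthfd1l*, *Sms* and *Smox* were among the 4 lowest of the 46 in 11-week control mice, at 0.37, 0.35 and 0.454 CPM per kb. The genes downregulated at 11 weeks lay between *Gnmt* at rank 1 and *Mtrr* at rank 38 of the 46.

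**Figure D2:**
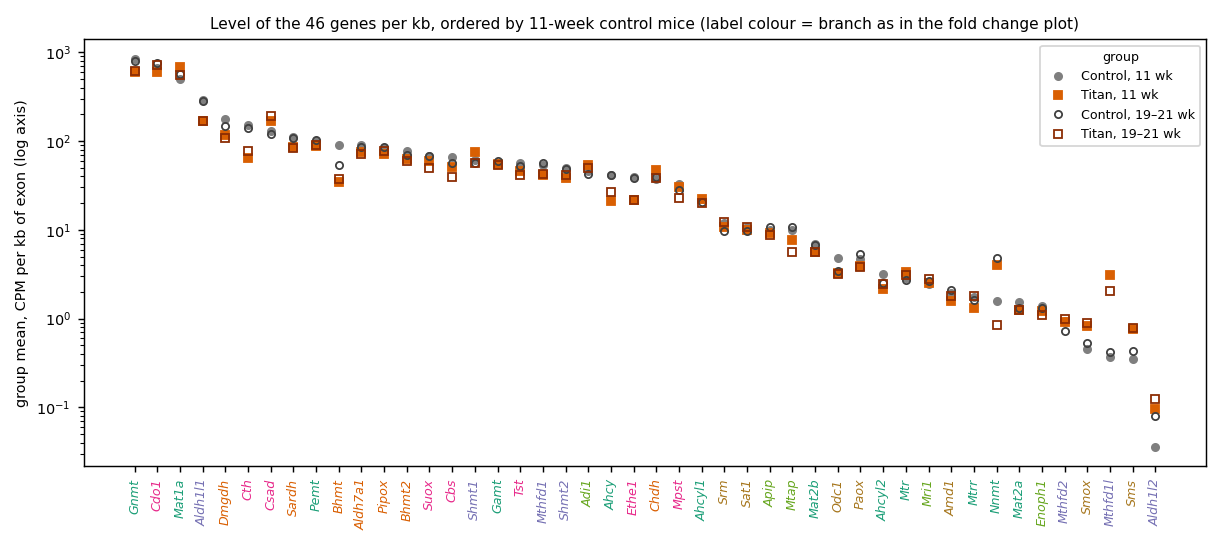
Group mean level in CPM per kb of exon (log axis) of the 46 genes, ordered by the 11-week control mice; filled symbols are 11 weeks, open symbols 19–21 weeks, circles control and squares Titan mice. Between the highest and the lowest gene the level falls from 845 to 0.0362, and the Titan squares of *Mthfd1l*, *Sms* and *Smox* lie above the control circles at the low end.

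Of the 12 genes of the methionine cycle and its methyltransferases, 1 was upregulated and 4 were downregulated at 11 weeks, and none was called at 19–21 weeks, where edgeR gave all 12 an adjusted p of 0.0720 or more and DESeq2 called *Nnmt* and *Pemt*. *Mat1a* rose and *Gnmt*, *Ahcyl2*, *Mtrr* and *Mat2b* fell in 11-week Titan mice. *Mat1a* was at 1519, 1639, 1972, 1582 and 1895 CPM in the 11-week control mice and at 2872, 2475, 2125, 1929 and 2432 CPM in the 11-week Titan mice. Titan mouse 4 lay below control mouse 3 and the groups were otherwise apart, and the log2 fold change was 0.46 ± 0.12 SE, adjusted p = 0.0139. In the older mice it was at 2413, 1631, 1957, 1803 and 1991 CPM in control mice and at 1684, 2084, 2221, 1965 and 1744 CPM in Titan mice. These older groups overlapped throughout, at -0.01 ± 0.12 SE, adjusted p = 0.961. *Mat2a*, the isoenzyme of most other tissues, was far lower, at 4.62 to 8.42 CPM over all 20 mice, and was not called at either age (-0.30 and -0.06). Per kb of exon, the median log2 ratio of *Mat1a* to *Mat2a* was 8.42 in 11-week control mice (range 8.08 to 8.61), 9.06 in 11-week Titan mice (8.86 to 9.42), 8.62 in older control mice (8.36 to 9.22) and 8.7 in older Titan mice (8.51 to 9.28). The ranges of the 11-week groups did not overlap, and those of the older groups did.

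*Gnmt* was at 736, 893, 1151, 1143 and 1173 CPM in the 11-week control mice and at 810.3, 670.5, 812, 637 and 682 CPM in the 11-week Titan mice. One control mouse lay inside the Titan range, and *Gnmt* fell, with a log2 fold change of -0.50 ± 0.14 SE, adjusted p = 0.0213. Among mice of 19–21 weeks it was at 957, 1166, 790.4, 876 and 972 CPM in control mice and at 579.7, 890.1, 815, 638 and 801 CPM in Titan mice. The older groups overlapped, at -0.35 ± 0.14 SE, adjusted p = 0.126. *Ahcyl2*, a relative of *Ahcy* without a known role in homocysteine release, had no overlap at 11 weeks. *Ahcyl2* was at 53.6, 46.3, 58.1, 65.9 and 62.8 CPM in the 11-week control mice and at 41.3, 38.8, 40.9, 42 and 33.2 CPM in the 11-week Titan mice. The log2 fold change was -0.55 ± 0.14 SE, adjusted p = 0.0121. In control mice of 19–21 weeks it was at 41.9, 68, 43.3, 42.6 and 33.7 CPM, and in Titan mice of that age at 48.7, 38.2, 44.4, 40.6 and 53.5 CPM. It did not differ detectably there (-0.03 ± 0.15 SE, adjusted p = 0.939), where control mouse 2 was the highest of all mice.

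*Mtrr* encodes the reductase that keeps methionine synthase active. *Mtrr* was at 8.61, 8.66, 8.12, 10 and 9.86 CPM in the 11-week control mice and at 7.44, 6.64, 6.35, 6.85 and 6.64 CPM in the 11-week Titan mice. Every Titan mouse lay below every control mouse, at a log2 fold change of -0.42 ± 0.12 SE, adjusted p = 0.0276. At the later age it was at 7.63, 9.57, 9.5, 7.64 and 8.05 CPM in control mice and at 9.79, 7.82, 11.3, 7.08 and 11.1 CPM in Titan mice. The older groups overlapped and the value had the opposite sign, 0.14 ± 0.13 SE, adjusted p = 0.523. *Mtr*, methionine synthase itself, was not called at 11 weeks (0.23 ± 0.09 SE, adjusted p = 0.103) or at 19–21 weeks (0.15). *Mat2b*, the regulatory subunit of the *Mat2a* enzyme, was at 34.9 ± 2.44 CPM (SD, n = 5) in 11-week control and 28.3 ± 2.06 CPM in 11-week Titan mice, a log2 fold change of -0.30 ± 0.09 SE, adjusted p = 0.0308. The 19–21-week means of *Mat2b* were 34.1 ± 2.88 and 28.4 ± 4.47 CPM (-0.26 ± 0.09 SE, adjusted p = 0.0887). In fits that left out 1 of the 20 mice, the 11-week call of *Gnmt* was lost without control mouse 3, 4 or 5 or Titan mouse 2, 4 or 5 (adjusted p 0.0514 to 0.0586), that of *Mtrr* without control mouse 4 or 5 or Titan mouse 2, 3 or 5 (0.0582 to 0.0695), and that of *Mat2b* without control mouse 2, 3, 4 or 5 or Titan mouse 1, 2 or 4 (0.0534 to 0.0751). Without a filter on low counts the 11-week calls of *Mtrr* (0.0831) and *Mat2b* (0.093) were also lost. *Mat2b* was called at 19–21 weeks without Titan mouse 2 (0.0153).

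Among the methyltransferases, *Pemt* (phosphatidylcholine synthesis), *Gamt* (creatine synthesis) and *Nnmt* (nicotinamide methylation) were not called at either age. *Pemt* was -0.18 at 11 weeks and -0.20 ± 0.07 SE, adjusted p = 0.072, at 19–21 weeks, where its groups did not overlap. DESeq2 called *Pemt* at that age with an adjusted p of 0.0297. *Nnmt* varied widely between mice of 1 group. It ran from 0.695 to 21.9 CPM in 11-week Titan mice and from 0.993 to 18.3 CPM in 19–21-week control mice. Its log2 fold changes were 1.32 ± 0.77 SE, adjusted p = 0.284, and -2.50 ± 0.87 SE, adjusted p = 0.0769, the latter an adjusted p of 0.031 with DESeq2.

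*Ahcy* encodes the hydrolase that splits S-adenosylhomocysteine into homocysteine and adenosine. *Ahcy* was at 85.7, 84.5, 156, 159 and 90.8 CPM in the 11-week control mice and at 72.2, 65.4, 68.7, 66.6 and 27.1 CPM in the 11-week Titan mice. For the 19–21-week mice it was at 95.8, 148, 125, 80.8 and 137 CPM in control mice and at 80.5, 90.7, 28.2, 20.9 and 154 CPM in Titan mice. The 11-week groups did not overlap, but the spread was wide and no call was made at 11 weeks (-0.95 ± 0.40 SE, adjusted p = 0.117) or at 19–21 weeks (-0.65 ± 0.39 SE, adjusted p = 0.332). In a fit of the 11-week groups alone the 11-week value had an adjusted p of 0.0351.

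*Ahcy* (chr2:155059310-155074497, minus strand) has a near-identical copy on chromosome 16, the gene *Gm4737*, whose coding sequence of 1296 bases differs from that of *Ahcy* at 4 positions. Counted from the A of the start codon, with the *Ahcy* base first, these are C459T, G474A, C1050T and C1068T. Only reads with a single best position in the genome were counted, so that a coding read of either gene counts where it spans a base that differs. The stretch of 60 coding bases (429 to 488) that holds the first pair is shown, from the GENCODE transcripts of GRCm38. It is a place where the reference sequences of *Ahcy* and *Gm4737* differ, and capitals mark those bases. Neither line is inbred, and whether each mouse carries the reference bases in both genes was not tested. Which gene a read came from can therefore not be settled from these counts.
Ahcy: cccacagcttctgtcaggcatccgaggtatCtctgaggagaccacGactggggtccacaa
Gm4737: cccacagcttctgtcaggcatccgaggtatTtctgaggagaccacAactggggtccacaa

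*Gm4737* had 8 to 18 reads in 6 mice and 138 to 760 reads in the other 14. The 6 mice were control mice 3 and 4 of 11 weeks, control mice 2, 3 and 5 of 19–21 weeks and Titan mouse 5 of 19–21 weeks, and *Ahcy* was at 125 to 159 CPM in them. As a share of the reads of both genes, *Gm4737* took 0.316% to 0.684% in these 6 mice, 18.9% to 26.8% in 11 others, and 54.1%, 60.6% and 64.9% in Titan mouse 5 of 11 weeks and Titan mice 3 and 4 of 19–21 weeks. These 3 ranges of the share lie apart, and no 11-week Titan mouse was in the lowest. With the reads of *Gm4737* and of 2 further copies added, a sum chosen after seeing the data, *Ahcy* was at 109 to 161 CPM in 11-week control mice and 59.4 to 96.7 CPM in 11-week Titan mice, again without overlap. On these summed reads *Ahcy* was downregulated at 11 weeks (-0.63 ± 0.20 SE, adjusted p = 0.0366) and was not called at 19–21 weeks (-0.34 ± 0.20, 0.317). What sets the share of *Gm4737* in a mouse was not tested.

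**Figure D3:**
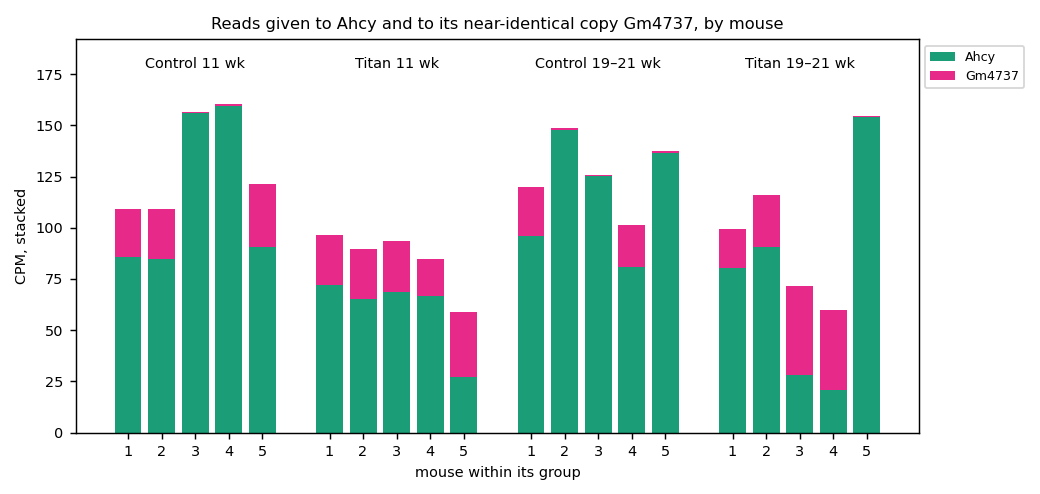
Stacked bars of CPM given to *Ahcy* and to its copy *Gm4737* (y axis) in each of the 20 mice (x axis), by group. In 6 mice the upper part is all but absent, in 3 Titan mice it is larger than the lower part, and the whole bar is lower in each 11-week Titan mouse than in any 11-week control mouse.

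Of the 7 genes of choline and betaine oxidation, 1 was upregulated and 2 were downregulated at 11 weeks, and 1 was downregulated at 19–21 weeks. *Bhmt* fell 2.6-fold in 11-week Titan mice, and *Dmgdh*, which demethylates the dimethylglycine that *Bhmt* releases, fell at both ages. *Bhmt* was at 539, 334, 496, 560.2 and 684 CPM in the 11-week control mice and at 233, 229, 210.2, 169 and 164 CPM in the 11-week Titan mice. The lowest control mouse lay above the highest Titan mouse, and the log2 fold change was -1.38 ± 0.23 SE, adjusted p = 3.67e-04. In the older mice it was at 335, 419, 232, 271 and 272 CPM in control mice and at 199.5, 225, 274, 95.4 and 270.0 CPM in Titan mice. The older groups overlapped, at -0.52 ± 0.23 SE, adjusted p = 0.165. Copies of *Bhmt* held at most 43 reads in any mouse, and adding them left the 11-week value at -1.38.

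*Dmgdh* was at 609, 522, 630.0, 704 and 586 CPM in the 11-week control mice and at 451, 411, 378, 359 and 408 CPM in the 11-week Titan mice. Among mice of 19–21 weeks it was at 521, 604, 496, 489 and 441 CPM in control mice and at 314, 415, 395, 288 and 423 CPM in Titan mice. No Titan mouse reached a control mouse of its age, and the log2 fold changes were -0.60 ± 0.11 SE, adjusted p = 8.78e-04, and -0.48 ± 0.11 SE, adjusted p = 0.0109. *Chdh*, which starts betaine synthesis from choline, was the gene of this branch that rose. *Chdh* was at 207, 249.6, 232, 279 and 206 CPM in the 11-week control mice and at 341, 315, 268, 251 and 282 CPM in the 11-week Titan mice. The groups overlapped, with a log2 fold change of 0.31 ± 0.10 SE, adjusted p = 0.042. In control mice of 19–21 weeks it was at 240.0, 262, 234, 248 and 226 CPM, and in Titan mice of that age at 222, 264, 240.4, 272 and 205 CPM. The older value was -0.01 ± 0.10 SE, adjusted p = 0.979. The 11-week call of *Chdh* was lost without control mouse 1, 3 or 5 or Titan mouse 1, 2 or 5 (adjusted p 0.0621 to 0.126), without a filter on low counts (0.068) and in a fit of the 11-week groups alone (0.0732). *Bhmt2*, *Aldh7a1* (betaine aldehyde oxidation), *Sardh* and *Pipox* (sarcosine oxidation) were not called, with log2 fold changes between -0.37 and -0.16 at both ages. *Aldh7a1* alone of these had no overlap at 19–21 weeks.

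*Bhmt*, *Bhmt2* and *Dmgdh* lie next to one another within 136.2 kb of chromosome 13. *Bhmt* (chr13:93616675-93637961) and *Bhmt2* (chr13:93655720-93674302) are transcribed from the minus strand and *Dmgdh* (chr13:93674433-93752833) from the plus strand, and the starts of *Bhmt2* and *Dmgdh* are 131 bases apart. *Dmgdh* was called at both ages, and *Bhmt2*, on the other side of the shared start region, at neither (-0.30 ± 0.12 SE, adjusted p = 0.115, and -0.21 ± 0.12 SE, adjusted p = 0.308). *Bhmt2* was at 193 ± 23.8 CPM in 11-week control and 157 ± 19.7 CPM in 11-week Titan mice. Whether the log2 fold changes of these neighbours differ from each other was not tested.

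**Figure D4:**
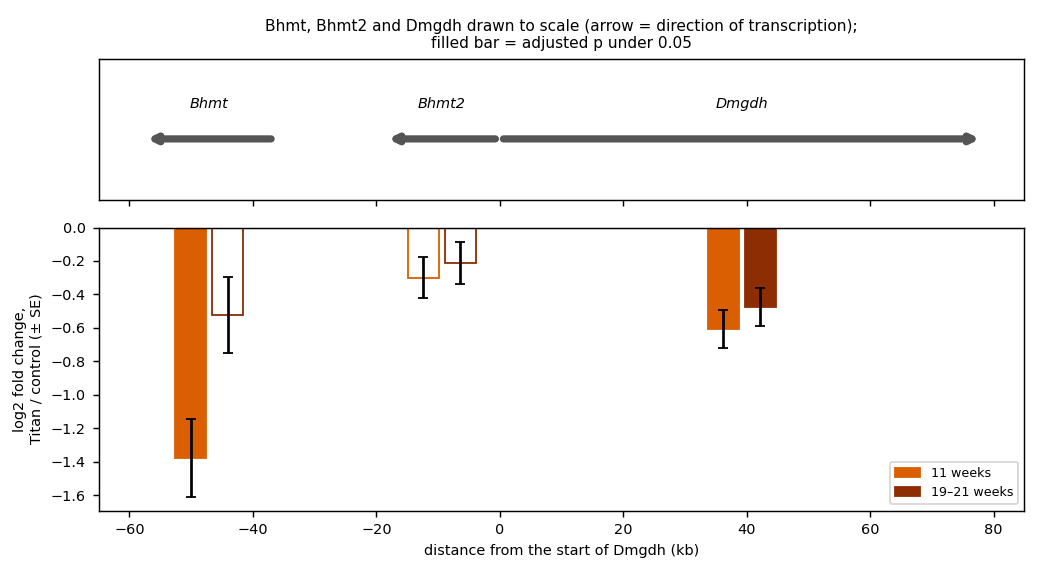
Upper panel: *Bhmt*, *Bhmt2* and *Dmgdh* to scale along the distance from the start of *Dmgdh* (kb), arrows giving the direction of transcription. Lower panel: log2 fold change of Titan over control with its SE at both ages, filled where the adjusted p is under 0.05. The bars of *Bhmt2*, -0.30 and -0.21, are open and shorter than those of *Dmgdh*, -0.60 and -0.48.

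The windows from 250 bases before to 50 after the RefSeq start of *Bhmt* and of *Dmgdh* are shown because both genes fell at 11 weeks. That of *Mthfd1l* is shown because it had the largest fold change of the 46 genes at 11 weeks. The gene spans printed in this text are those of GENCODE, and their starts differ from the RefSeq starts. The *Bhmt* window lies mostly inside the GENCODE span of *Bhmt*, and the *Mthfd1l* window almost wholly before that of *Mthfd1l*. All are RefSeq sequences of GRCm38.p6, each read along its gene. The *Bhmt* window is chr13:93637709-93638008 (minus strand), the *Dmgdh* window chr13:93674186-93674485 (plus strand) and the *Mthfd1l* window chr10:3972825-3973124 (plus strand). In *Bhmt* capitals mark AGGTCA, the element bound by many nuclear receptors, in *Dmgdh* the 233 bases that also lie in the window of *Bhmt2*, and in *Mthfd1l* the core TGACGT of the cyclic AMP response element, here on the opposite strand.
Bhmt: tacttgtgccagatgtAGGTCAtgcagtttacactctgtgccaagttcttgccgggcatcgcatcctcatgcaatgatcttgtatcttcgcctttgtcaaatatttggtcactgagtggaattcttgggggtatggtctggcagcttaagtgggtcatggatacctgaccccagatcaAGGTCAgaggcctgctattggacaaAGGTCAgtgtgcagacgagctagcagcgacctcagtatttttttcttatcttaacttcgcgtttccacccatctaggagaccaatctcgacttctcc
Dmgdh: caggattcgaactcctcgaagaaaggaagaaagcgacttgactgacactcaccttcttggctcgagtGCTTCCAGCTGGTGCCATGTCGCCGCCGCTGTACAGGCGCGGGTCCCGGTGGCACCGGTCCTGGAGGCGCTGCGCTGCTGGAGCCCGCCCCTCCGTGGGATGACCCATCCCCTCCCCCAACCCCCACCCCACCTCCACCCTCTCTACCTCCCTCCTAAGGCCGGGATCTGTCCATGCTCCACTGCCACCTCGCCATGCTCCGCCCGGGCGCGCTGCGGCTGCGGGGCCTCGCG
Mthfd1l: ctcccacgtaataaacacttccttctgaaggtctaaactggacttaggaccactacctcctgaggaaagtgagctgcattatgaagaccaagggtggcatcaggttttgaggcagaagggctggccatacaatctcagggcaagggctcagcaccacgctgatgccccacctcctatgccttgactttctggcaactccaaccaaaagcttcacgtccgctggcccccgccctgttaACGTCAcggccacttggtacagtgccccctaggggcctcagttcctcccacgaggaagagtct

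Such windows were at hand for 37 of the 46 genes (51 windows) and were searched on both strands for 4 motifs. AGGTCA occurred 3 times in the *Bhmt* window and in 17.6% of the windows of the 46 genes, against 16.3% of all 32851 windows. The *Dmgdh* window held none of the 4 motifs. TGACGT was present in the *Mthfd1l* window and in 9.8% of the windows of these genes, against 7.51% of all windows. The E-box CACGTG was in the windows of *Cbs*, *Enoph1* and *Sms* (5.88% against 7.15%), and the amino acid response element TGATGNAAT in none (0.965% of all windows). The windows of *Mat1a*, *Nnmt*, *Cth*, *Cdo1*, *Tst*, *Adi1*, *Srm*, *Aldh1l2* and *Aldh7a1* were not analysed here.

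Of the 7 folate cycle genes, 1 was upregulated and 3 were downregulated at 11 weeks, and 1 was upregulated and 2 were downregulated at 19–21 weeks. *Mthfd1l* (chr10:3973118-4167081), the mitochondrial formyltetrahydrofolate synthetase, rose 8.42-fold and 4.77-fold. *Mthfd1l* was at 3.04, 1.75, 1.98, 0.61 and 0.828 CPM in the 11-week control mice and at 13.2, 17.1, 14.4, 7.35 and 15.8 CPM in the 11-week Titan mice. At the later age it was at 1.2, 0.722, 1.94, 2.37 and 3.19 CPM in control mice and at 8.29, 11.2, 10.3, 9.11 and 6.03 CPM in Titan mice. The lowest Titan mouse of either age lay above the highest control mouse, and the log2 fold changes were 3.07 ± 0.35 SE, adjusted p = 7.27e-06, and 2.25 ± 0.36 SE, adjusted p = 4.55e-04. Its counts were low, from 8 reads in the lowest mouse to 376 in the highest.

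*Aldh1l1*, the most abundant folate gene, and *Mthfd1*, the cytosolic enzyme that interconverts formyl, methenyl and methylene folate, fell at both ages. *Aldh1l1* was at 1050, 1143, 1344, 1619 and 1423 CPM in the 11-week control mice and at 809, 694, 757, 788 and 768 CPM in the 11-week Titan mice. For the 19–21-week mice it was at 1269, 1603, 1055, 1158 and 1247 CPM in control mice and at 611, 832, 848, 627 and 861 CPM in Titan mice. The groups did not overlap at either age, and the log2 fold changes were -0.79 ± 0.13 SE, adjusted p = 3.47e-04, and -0.74 ± 0.13 SE, adjusted p = 0.00112. *Mthfd1* was at 222, 231, 228, 253 and 261 CPM in the 11-week control mice and at 201, 175, 196, 185 and 176 CPM in the 11-week Titan mice. In the older mice it was at 255, 271, 234, 223 and 262 CPM in control mice and at 182, 199, 194, 166 and 216 CPM in Titan mice. *Mthfd1* likewise had no overlap at either age, with smaller changes of -0.36 ± 0.08 SE, adjusted p = 0.00343, and -0.38 ± 0.08 SE, adjusted p = 0.00417.

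*Shmt2*, the mitochondrial serine hydroxymethyltransferase, fell at 11 weeks from 155 ± 21 to 120.3 ± 9.23 CPM (-0.36 ± 0.11 SE, adjusted p = 0.0236). Its means in the older mice were 149 ± 23.4 and 127 ± 11.9 CPM (-0.23 ± 0.11 SE, adjusted p = 0.193). The 11-week call was lost without control mouse 4 or 5 or Titan mouse 3 or 4 (adjusted p 0.0538 to 0.0784). *Shmt1*, its cytosolic counterpart, was not called at 11 weeks (0.30 ± 0.12 SE, adjusted p = 0.109) or at 19–21 weeks (adjusted p = 0.992). *Mthfd2*, the mitochondrial dehydrogenase that acts before *Mthfd1l*, was at 1.63 to 4.89 CPM over all mice and was not called (-0.05 and 0.44). *Aldh1l2* had at most 22 reads in a mouse and was not called either.

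**Figure D5:**
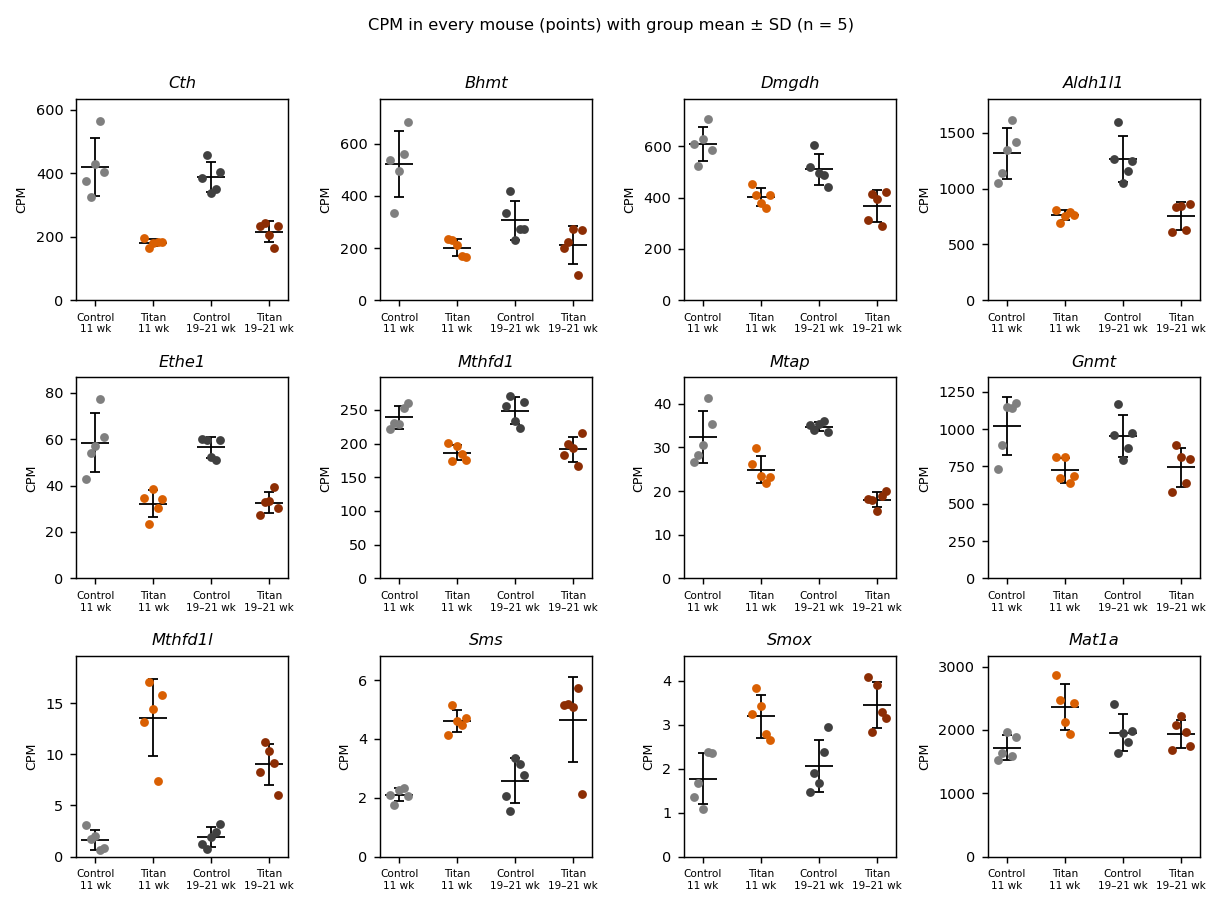
CPM (y axis, from 0) of 12 of the genes in every mouse (points) by group (x axis), with the group mean and SD (n = 5). *Cth*, *Dmgdh*, *Aldh1l1*, *Ethe1* and *Mthfd1* are lower in all Titan than in all control mice of their age, *Mthfd1l* is higher in all Titan mice, and *Mat1a* and *Gnmt* overlap.

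Of the 8 genes of transsulfuration and sulfur oxidation, none was upregulated and 2 were downregulated at 11 weeks (DESeq2 also called none upregulated, and 1 had a positive value with an unadjusted p of 0.0377), and 1 was upregulated and 4 were downregulated at 19–21 weeks. *Cth* (chr3:157894248-157925077), which splits cystathionine to release cysteine, had the smallest p of the 46 genes at 11 weeks. *Cth* was at 376, 326, 431, 567 and 404 CPM in the 11-week control mice and at 195, 165, 180.0, 182 and 184 CPM in the 11-week Titan mice. Among mice of 19–21 weeks it was at 385, 458, 339.6, 349 and 404 CPM in control mice and at 235, 242, 205, 164 and 234 CPM in Titan mice. Control mice were above Titan mice without overlap at both ages, 2.32-fold and 1.79-fold by the fit, with log2 fold changes of -1.22 ± 0.13 SE, adjusted p = 3.40e-06, and -0.84 ± 0.13 SE, adjusted p = 2.85e-04. The 5 young Titan mice lay within 30 CPM of one another, whereas the control mice of that age spread from 326 to 567 CPM. *Gm43314*, a gene on the same strand within an intron of *Cth*, had at most 317 reads in a mouse. *Cbs*, which makes the cystathionine that *Cth* uses, was at 500.4 ± 91.3 CPM in control and 385 ± 52.1 CPM in Titan mice at 11 weeks (-0.38 ± 0.13 SE, adjusted p = 0.05005). At 19–21 weeks the means of *Cbs* were 423 ± 58.3 and 292 ± 36.6 CPM, without overlap, and it was downregulated (-0.53 ± 0.13 SE, adjusted p = 0.0115). At 11 weeks *Cbs* passed the threshold with DESeq2 (adjusted p = 0.0396) and without 11-week control mouse 1 or 5, 11-week Titan mouse 1 or older control mouse 2, 3 or 5 (0.0207 to 0.0498).

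*Ethe1* encodes the persulfide dioxygenase of mitochondrial sulfide oxidation and *Suox* the sulfite oxidase that ends the path at sulfate. *Ethe1* was at 42.8, 54.1, 57.1, 77.5 and 60.9 CPM in the 11-week control mice and at 34.5, 23.4, 38.5, 30.3 and 34.4 CPM in the 11-week Titan mice. In control mice of 19–21 weeks it was at 60, 59.6, 52.1, 51.2 and 59.6 CPM, and in Titan mice of that age at 27.2, 32.9, 33.2, 39.3 and 30.2 CPM. No Titan mouse reached the control range at either age, at -0.86 ± 0.14 SE, adjusted p = 2.24e-04, and -0.79 ± 0.14 SE, adjusted p = 0.00109. *Suox* was at 138, 184, 172, 172 and 174 CPM in the 11-week control mice and at 162, 161, 152, 129 and 145 CPM in the 11-week Titan mice. At the later age it was at 159, 183, 179, 152 and 181 CPM in control mice and at 107, 152, 126, 115 and 124 CPM in Titan mice. *Suox* groups overlapped at both ages and it was called at 19–21 weeks alone (-0.17 ± 0.10 SE, adjusted p = 0.283, against -0.45 ± 0.10 SE, adjusted p = 0.0056).

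*Csad*, which decarboxylates cysteine sulfinate on the way to taurine, was the sulfur gene that rose. Its means were 492 ± 61 CPM in control and 639 ± 165 CPM in Titan mice at 11 weeks (0.38 ± 0.17 SE, adjusted p = 0.151), and 460.0 ± 121 and 731 ± 75.2 CPM at 19–21 weeks (0.67 ± 0.17 SE, adjusted p = 0.0168). *Cdo1*, which supplies the cysteine sulfinate, was at 848 to 1616 CPM over all 20 mice and was not called (-0.15 and -0.05). The sulfurtransferases *Tst* and *Mpst*, whose starts are 509 bases apart on chromosome 15, were not called. *Tst* was -0.30 at 11 weeks and -0.34 ± 0.12 SE, adjusted p = 0.0815, at 19–21 weeks, where its groups did not overlap, and *Mpst* was -0.13 and -0.31.

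Of the 5 methionine salvage genes, *Mtap* alone was called, and it was downregulated at both ages. *Mtap* (chr4:89137122-89181081) encodes methylthioadenosine phosphorylase, which takes up the by-product of spermidine and spermine synthesis. *Mtap* was at 26.6, 28.3, 30.6, 41.4 and 35.3 CPM in the 11-week control mice and at 26.1, 29.8, 23.6, 21.9 and 23.2 CPM in the 11-week Titan mice. The 11-week groups overlapped, at -0.38 ± 0.11 SE, adjusted p = 0.0174, and the call was lost without control mouse 4 (0.063) or Titan mouse 5 (0.0506) and in a fit of the 11-week groups alone (0.0702). For the 19–21-week mice it was at 35.1, 33.9, 35.3, 36.1 and 33.6 CPM in control mice and at 18.1, 18, 15.4, 18.8 and 20.1 CPM in Titan mice. At this age the lowest control mouse lay above the highest Titan mouse by more than 13 CPM, the fitted difference was 1.92-fold, and *Mtap* had the smallest p of the 46 genes (-0.94 ± 0.11 SE, adjusted p = 1.89e-05). *Mri1*, *Apip*, *Enoph1* and *Adi1*, which carry the ribose carbons of methylthioadenosine on to methionine, had log2 fold changes between -0.28 and 0.24 at both ages.

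Of the 7 polyamine genes, 2 were upregulated and 1 was downregulated at 11 weeks, and 2 were upregulated at 19–21 weeks, where edgeR and DESeq2 called none downregulated and *Paox* had the smallest unadjusted p of those with a negative value (0.0229). *Sms*, spermine synthase, and *Smox*, which oxidises spermine back to spermidine, rose at both ages. *Sms* was at 2.11, 1.75, 2.28, 2.32 and 2.07 CPM in the 11-week control mice and at 4.13, 5.16, 4.6, 4.47 and 4.71 CPM in the 11-week Titan mice. In the older mice it was at 2.06, 1.53, 3.35, 3.16 and 2.77 CPM in control mice and at 5.17, 5.18, 5.1, 5.74 and 2.12 CPM in Titan mice. *Sms* was 2.18-fold higher without overlap at 11 weeks (1.12 ± 0.22 SE, adjusted p = 0.00145). At 19–21 weeks 4 of the 5 Titan mice lay above all control mice and Titan mouse 5 lay within their range (0.84 ± 0.23 SE, adjusted p = 0.0228). *Smox* was at 1.35, 1.67, 1.09, 2.38 and 2.35 CPM in the 11-week control mice and at 3.24, 3.83, 3.43, 2.78 and 2.65 CPM in the 11-week Titan mice. Among mice of 19–21 weeks it was at 1.46, 1.9, 1.67, 2.37 and 2.94 CPM in control mice and at 4.08, 2.83, 3.89, 3.29 and 3.14 CPM in Titan mice. *Smox* had no overlap at 11 weeks (0.85 ± 0.22 SE, adjusted p = 0.0115) and overlapped in a single pair of mice at 19–21 weeks (0.74 ± 0.23 SE, adjusted p = 0.0445).

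*Odc1*, ornithine decarboxylase, which makes putrescine at the start of the pathway, fell at 11 weeks. *Odc1* was at 14.9, 11.3, 15.9, 14.8 and 25.2 CPM in the 11-week control mice and at 10.2, 14.5, 9.63, 11 and 9.54 CPM in the 11-week Titan mice. The groups overlapped and the highest value was control mouse 5 (-0.59 ± 0.17 SE, adjusted p = 0.0217). In control mice of 19–21 weeks it was at 9.61, 14.3, 11.5, 11.1 and 11.9 CPM, and in Titan mice of that age at 11.4, 9.28, 9.36, 11.6 and 12 CPM. There was no call at that age (-0.12 ± 0.18 SE, adjusted p = 0.729). The call of *Odc1* was lost without 11-week control mouse 5 or Titan mouse 1, 3 or 5 (adjusted p 0.0522 to 0.079) and in a fit of the 11-week groups alone (0.0682). The 19–21-week call of *Sms* was lost without control mouse 1 or 2 or Titan mouse 4 (0.0593 to 0.0694) and in a fit of the 19–21-week groups alone (0.106). That of *Smox* was lost in 12 of the 20 fits that left out 1 mouse (0.0513 to 0.108): control mice 1, 2, 3 and 4 and Titan mice 1, 3, 4 and 5 of 19–21 weeks, and control mouse 2 and Titan mice 1, 3 and 5 of 11 weeks. It was also lost in a fit of the 19–21-week groups alone (0.0683), without a filter on low counts (0.0928), with counts over both strands (0.0519) and with a replicate block (0.0672). *Amd1* (SAM decarboxylase), *Srm* (spermidine synthase), *Sat1* (polyamine acetylation) and *Paox* (oxidation of acetylated polyamines) were not called, with log2 fold changes between -0.50 and 0.32. *Sms*, *Smox* and *Mthfd1l* were measured with few reads, 16 to 112 per mouse for *Sms* and *Smox*.

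Between the ages, *Mtap* alone of the 46 genes was called within Titan mice, and it was lower at 19–21 weeks (-0.46 ± 0.11 SE, adjusted p = 0.0427). In that comparison 1.25% of all genes were called. The call of *Mtap* was lost in 9 of the 20 fits without 1 mouse (adjusted p 0.0503 to 0.163): Titan mouse 1, 2 or 5 of 11 weeks, any of the 5 older Titan mice, and older control mouse 4. It was also lost in a fit of the Titan groups alone (0.065) and with a replicate block (0.073). DESeq2 called *Mtap* and *Shmt1* (-0.44, adjusted p = 0.0313). Within control mice edgeR and DESeq2 called none of the 46 genes, and 0.0871% of all genes were called. There, 4 of the 46 and 849 of all 13784 genes had an unadjusted p under 0.05. The smallest adjusted p there was that of *Bhmt*, which was lower in older control mice (-0.77 ± 0.23 SE, adjusted p = 0.454). The age comparison in Titan mice uses the same Titan libraries as the line comparisons.

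The difference between the age effects of the lines, which is also the difference of the Titan effect between the ages, was called for none of the 46 genes by edgeR or DESeq2. Of all genes, 0.00725% (1 gene) were called. An unadjusted p under 0.05 was found for 7 of the 46 and for 1231 of all 13784 genes. The smallest adjusted p was that of *Mtap* (-0.56 ± 0.15 SE, adjusted p = 0.216), and the largest change was that of *Nnmt* (-3.82 ± 1.16 SE, adjusted p = 0.29). For *Bhmt* the term was 0.86 ± 0.32 SE, adjusted p = 0.419, and for *Mtrr* 0.56 ± 0.18 SE, adjusted p = 0.3. Calls at 11 weeks alone or 19–21 weeks alone are therefore not shown to differ between the ages.

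Of 71 other genes of the same pathways, 67 were tested, and 3 were upregulated and 7 downregulated at 11 weeks, and 1 was upregulated and 12 downregulated at 19–21 weeks. Against the shares of all genes (7.23% up and 7.7% down at 11 weeks, 4.24% and 4.88% at 19–21 weeks), 14.9% of the 67 were called at 11 weeks, no more than among all genes, and 19.4% at 19–21 weeks. *Slc6a12*, a betaine transporter, fell by 0.48 on the log2 scale at 11 weeks (adjusted p = 6.70e-04) and at 19–21 weeks (0.00147), from 74.4 ± 1.79 to 53.4 ± 4.99 CPM at 11 weeks and from 74.3 ± 3.61 to 53.4 ± 8.04 CPM at 19–21 weeks. *Gcsh* and *Amt*, parts of the mitochondrial glycine cleavage system that feeds the folate cycle, also fell at both ages. *Gcsh* was at 64.6 ± 9.96 CPM in control and 44.3 ± 4.41 CPM in Titan mice at 11 weeks (-0.54 ± 0.12, 0.00422) and -0.64 ± 0.12 (0.00235) at 19–21 weeks, and *Amt* was -0.36 ± 0.09 (0.00835) and -0.50 ± 0.09 (0.00162). *Mmadhc*, which routes vitamin B12 to its enzymes, rose at 11 weeks, from 42.3 ± 4.29 to 58.4 ± 10.7 CPM (0.46 ± 0.11, 0.00828). Of the glutathione synthesis genes, *Gclc* and *Gss* rose at 11 weeks, and of the sulfide and taurine genes, *Papss2*, *Sqor* and *Got1* fell at 19–21 weeks.

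The levels of liver zone and cell type markers also differed between the groups. Of 8 pericentral hepatocyte markers, 3 were downregulated at 11 weeks (*Cyp1a2* -1.57, *Lgr5* -1.03 and *Cyp2e1* -0.76). The others were not called: *Slc1a2* (-0.58) and *Lhpp* (-0.38) were negative, and *Glul* (0.06), *Axin2* (0.07) and *Rhbg* (0.38) were positive. The summed level of the 8 was 2253 to 3807 CPM in 11-week Titan mice against 3842 to 5278 CPM in control mice, without overlap. Most of this sum was *Cyp2e1* alone (mean 2149 CPM in Titan and 3648 CPM in control mice). At 19–21 weeks edgeR called none of the 8, and the sums of 4010 to 5756 CPM in Titan and 4165 to 5371 CPM in control mice overlapped. An unadjusted p under 0.05 was found for 5 of them, in both directions, and for 3320 of all 13784 genes. *Glul* (0.51) and *Axin2* (0.68) were positive, and *Cyp1a2* (-0.57), *Lgr5* (-0.47) and *Lhpp* (-0.41) were negative. Of 8 periportal markers, *Hal* and *Cdh1* were downregulated at 11 weeks and *Hal*, *Gls2*, *Sds* and *Ass1* at 19–21 weeks. *Pck1* (0.44 and 0.48) and *Hsd17b13* (0.29 and 0.50) were positive at both ages, and *Cyp2f2* was at -0.07 and 0.16, none of them called. The periportal sums overlapped at both ages (4668 to 5866 against 4756 to 5604 CPM at 11 weeks, 4480 to 5594 against 4386 to 5114 CPM at 19–21 weeks). Of the 6 markers listed for hepatocytes, *Cps1* (-0.72) and *Apoa1* (-0.54) fell at 11 weeks. *Alb* (0.14), *Ttr* (-0.04), *Hnf4a* (-0.18) and *Fgb* (-0.30) were not called there. The part of these zone markers in the changes of the 46 genes was not tested.

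Of the 29 markers of other cells that were tested, 4 were upregulated and 2 downregulated at 11 weeks and 2 upregulated at 19–21 weeks, where 7.23%, 7.7% and 4.24% of all genes were so called. *Cd3e* (T cells) rose at both ages (3.94 and 2.02) and *Ly6c2* at 11 weeks (2.44), with summed leukocyte levels of 13.6 to 16.9 CPM in control and 14.5 to 23.7 CPM in Titan mice at 11 weeks. *Ptprc*, also listed for leukocytes, was not called at either age (0.06 and 0.24). It made up most of these sums, at a mean of 14.3 CPM in control and 14.9 CPM in Titan mice at 11 weeks. *Cd3e* and *Ly6c2* each had at most 6 reads in any 11-week control mouse. *Cd79a*, *Ms4a1* and *S100a8* did not pass the filter on low counts. *Cidec* rose at both ages (5.05 and 3.71), while the adipocyte markers *Adipoq*, *Plin1* and *Lep* had at most 2 reads in any mouse. *Des*, a stellate cell marker, rose at 11 weeks (1.23), from a mean of 0.903 to 2.19 CPM. The other stellate markers were not called there: *Dcn* (0.11), *Reln* (-0.01), *Lrat* (0.62), *Col1a1* (1.235) and *Col3a1* (0.55). The endothelial markers *Kdr* and *Pecam1* fell (-0.26 and -0.28) at 11 weeks, and *Stab2* (-0.19), *Clec4g* (-0.12) and *Ptprb* (-0.04) were not called. The summed endothelial level was then 406 to 472 CPM in Titan and 473 to 515 CPM in control mice. Of 6 Kupffer cell, 4 cholangiocyte and 4 erythroid markers tested, edgeR called none at either age, and *Timd4*, *Hbb-bs* and *Slc4a1* had an unadjusted p under 0.05 at 19–21 weeks. The exocrine pancreas markers *Cpa1*, *Prss2* and *Pnlip* had no read in any mouse, and *Cela2a* had at most 28. The part of these cells in the changes of the 46 genes was not tested.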

How the data were processed

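Per the labels and the study's methods, the authors extracted liver RNA, depleted rRNA, prepared stranded libraries with the NEBNext Ultra II Directional kit, sequenced them on an Illumina HiSeq, and mapped and counted uniquely mapped reads with STAR 2.5.3a on GRCm38. The deposited values are raw read counts per gene and strand setting, and the study's own test was DESeq2. Here the column matching the library strand (96.83% to 97.55% of stranded reads) was used, following the study 1562 genes of the Y chromosome and 104 genes of histones were dropped, and 55480 of 55573 gene IDs matched the GENCODE M21 annotation. Genes were filtered with filterByExpr, scaled by TMM and tested with edgeR 4.0.16 (quasi-likelihood F test, R 4.3.3, Benjamini–Hochberg adjustment) in 1 fit of 4 groups. SEs were derived from the F statistics (log2 fold change over root F). DESeq2 1.42.0, other scalings, filters and sample choices were alternatives. Both tests were checked on simulated counts. Copies of the genes were sought by BLAST (at least 90% identity over 500 bases). The mice are the design's biological replicates. The genes and lists were chosen with earlier results of these data known. Values in every mouse were given for the 3 genes of smallest p in each branch among those called in any comparison, and for *Bhmt*, *Gnmt*, *Cth*, *Dmgdh* and *Ahcy*, which the study names. The other genes called were given by mean and SD, and of other pathway genes the 3 of smallest p at each age were given with values. Library depth is given with the results and limits what low-count genes can show.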

Additional observations from a re-analysis of the deposited data

Results flagged for a closer look

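In 6 of the 88 sets of 5 mice examined (22 named genes in 4 groups), 1 mouse lay far from its group mates by Dixon's ratio of gap to range (limit 0.71). Chance alone gives such a mouse in about 1 of 20 sets. *Ahcy* was at 27.1 CPM in 11-week Titan mouse 5, against 65.41 to 72.15 CPM in the others, and this mouse gave 54.09% of the reads of both genes to the copy *Gm4737*. *Sms* was at 2.124 CPM in 19–21-week Titan mouse 5, against 5.104 to 5.735 CPM. *Cbs* was at 476.3 CPM in 11-week Titan mouse 1, against 346.9 to 376 CPM. *Ahcyl2* was at 68.05 CPM in 19–21-week control mouse 2, against 33.72 to 43.27 CPM. In 11-week control mouse 1, *Mat2b* was at 30.71 CPM (others 34.89 to 36.56 CPM) and *Suox* at 137.5 CPM (others 171.5 to 184.4 CPM). The interaction of line and age, the test of whether the Titan effect differed between the ages, passed for none of the 46 genes with edgeR or DESeq2. Of the 46, 7 had an unadjusted p under 0.05, as had 1231 of all 13784 genes.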

How the results depend on the processing

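Of 45 results for named genes, none that was called changed sign under any setting. The values near 0 of *Mat1a*, *Ahcyl2* and *Chdh* at 19–21 weeks, none of them called, changed sign without 1 mouse (-0.07 to 0.07, -0.12 to 0.16 and -0.06 to 0.04), those of *Mat1a* and *Chdh* also with at least 10 counts in every mouse. With a log2 fold change over 0.5 also required, the 46 genes gave 3 higher and 7 lower at 11 weeks, 5 lower at 19–21 weeks, and 0 lower with age in Titan mice. The share of all genes past both limits is not given here, so these counts cannot be set against it. With only the compared groups in the fit, 2 were higher at 19–21 weeks and 0 lower with age in Titan mice, and DESeq2 gave 2 lower there. The replicate block gave 0 lower with age in Titan mice and lost the call of *Smox* at 19–21 weeks (adjusted p = 0.0672). Same-numbered mice deviated together little (r -0.144 to 0.175 over 30 pairs, 4 over 0.1). Pairs of mice with different numbers were not compared, so this does not settle whether the numbers mark a pairing or batch. Of the other pathway genes, 5 were higher at 11 weeks with DESeq2, and at 19–21 weeks 0 with both strands or only the compared groups and 2 without a filter. Of the markers, 0 were higher at 11 weeks with at least 10 counts in every mouse. At 19–21 weeks 4 were higher with DESeq2, 1 with both strands, at least 10 counts, only the compared groups or the replicate block, and 2 were lower with only the compared groups. Counted on both strands, the median log2 ratio of *Mat1a* to *Mat2a* was 8.675 and 9.408 in 11-week control and Titan mice and 8.79 and 9.152 in older control and Titan mice, so that the older medians lay farther apart than on 1 strand (8.62 and 8.696), a setting added after seeing the data. Without 1 mouse, the 46 genes gave 4 to 6 higher and 8 (without control mouse 4) to 18 lower at 11 weeks, 2 (without older control mouse 1 or 2 or Titan mouse 4) to 4 higher and 8 to 10 lower at 19–21 weeks, and 0 to 1 higher and 0 to 1 lower with age in Titan mice. The shares of all genes called under these settings and in these fits are not given here either, so these counts cannot be set against them. The causes were not tested. The planned search for copies over 100 bases was not run, since repeats matched, and one over 500 bases, chosen after seeing the data, took its place. Genes with few reads, such as *Aldh1l2*, could show no small change at this depth.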
